A study of Mus musculus with 3 samples.

Results

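The 10 genes described here encode enzymes and a chaperone that fold, modify and cross-link collagen: the lysyl oxidases *Lox*, *Loxl1*, *Loxl2*, *Loxl3* and *Loxl4*, the lysyl hydroxylases *Plod1* and *Plod2*, the catalytic prolyl 4-hydroxylase subunits *P4ha1* and *P4ha2*, and *Serpinh1*, the collagen chaperone HSP47. They were chosen by symbol, each symbol matched 1 row, and they are 10 of the 55422 genes counted.

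Collagen chains are hydroxylated on proline and lysine in the endoplasmic reticulum, where prolyl 4-hydroxylation stabilises the triple helix and HSP47 holds the folded helix during export. Outside the cell, lysyl oxidases turn lysine and hydroxylysine side chains into aldehydes that join neighbouring molecules, and lysyl hydroxylation in the telopeptides sets the kind of cross-link that forms in bone and cartilage. Losses of several of these enzymes are known to cause brittle bone or connective tissue disease.

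Single cell RNA sequencing (scRNA-seq) was performed on long bone of untreated C57BL/6 mice aged 3 weeks, in 2 libraries of metaphyseal cells and 1 library of *Pdgfra-GFP*+ cells. The metaphyseal cells came from wild-type male mice and were depleted of lineage-positive, CD45+ and CD117+ cells. The GFP+ cells were sorted from the metaphysis-epiphysis region of male mice heterozygous for a nuclear H2B-GFP reporter at *Pdgfra*, so their makeup follows this gene, and the sorted tissue includes the epiphysis, which the metaphyseal libraries do not aim at. The number of animals pooled per library is not given in the sources used here, so the p-values measure the spread between these libraries only. That spread was estimated for each gene over all populations of a fit, not only the 2 compared. The main fit included blood cells.

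The libraries held 22082735 to 91747759 unique molecular identifiers (UMIs, each tagging 1 captured RNA molecule), and 2382, 2004 and 11242 cells were kept in metaphyseal libraries 1 and 2 and the GFP library, with a median of 5330 to 6426 UMIs per cell. Cells were assigned to populations by fixed marker lists that hold none of the 10 genes, no collagen and no other gene of collagen processing, and 13249 of 15628 cells received a name. All names are therefore rebuilt here: septoclast-like (SC), metaphyseal and diaphyseal mesenchymal stromal (mpMSC, dpMSC), osteoblast-like (OB), chondrocyte-like, endothelial (EC), mural and blood populations. Each had all markers of its own list detected in every library in which it was summed. The gate itself asked for at least 3 of them in a cell, so this is no check of the names. All 5 OB markers were also detected in EC in every library. Not all populations were distinct. The mpMSC-like cells had 3151 to 4835 CPM (UMIs of a gene or list per 1e+06 UMIs of the population) of their own markers. They had 4016 to 5796 CPM of the dpMSC markers, against 30569 to 34125 CPM in dpMSC-like cells. Late osteoblast-like (late OB) cells of the GFP library had 10645 CPM of their own and 42569 CPM of the OB markers. B-lineage cells of that library had 8235 CPM of their own and 16081 CPM of the OB markers. In metaphyseal library 2 they had 7531 CPM of their own and 7697 CPM of the neutrophil markers. Metaphyseal library 1 shared 9 cell barcodes with the GFP library and metaphyseal library 2 shared 10, where 3.94 and 3.32 were expected by chance, and no count of called genes changed by over 1.5 times without these cells.

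Levels are given as CPM of the summed UMIs of a population in metaphyseal library 1, metaphyseal library 2 and the GFP library, in that order. Whether library values overlap is judged on these CPM, without the scaling that the test applies. Differences are log2 fold changes with their standard error (SE), tested by edgeR's quasi-likelihood method at a Benjamini-Hochberg adjusted p of 0.05 over all genes in the fit. The SE is derived from the fold change and the F statistic of the test. The test rescales each sum by TMM factors, and these matter here: the 10 most abundant genes took 26.7 to 37.5% of the UMIs in OB-like cells and 8.39 to 11.9% in mpMSC-like cells, and without the factors the median change of all genes from mpMSC-like to OB-like cells moved by -0.79. Barcodes with at most 100 UMIs, which stand for free RNA, carried 242 to 259 CPM of *Lox*, 84.2 to 95.9 CPM of *Loxl1* and 1557 to 2833 CPM of *Serpinh1*, so low levels are read against erythroid-like cells. This reference is rough, as it rests on 21, 22 and 92 cells. They carried 2617, 4777 and 4870 CPM of the dpMSC markers and 364, 174 and 7992 CPM of the OB markers, so it also differs between libraries.

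**Figure D1:**
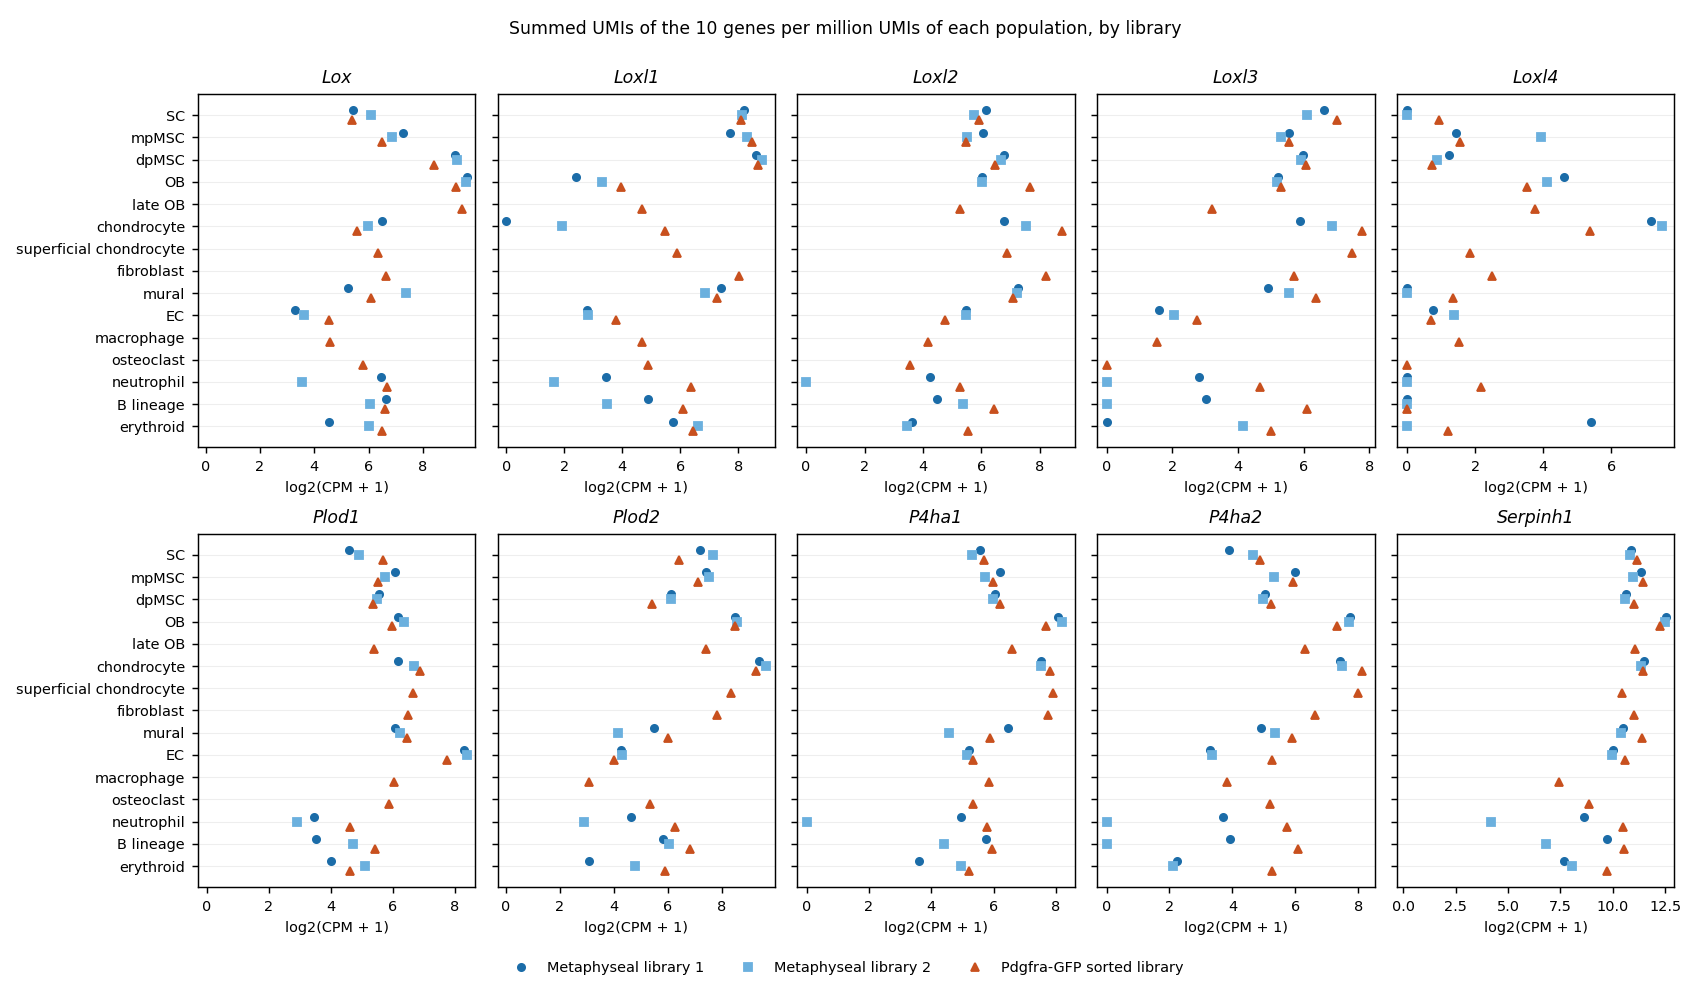
Level of each gene, as log2 of CPM + 1, in every population and library; names stand for the marker-gated populations, circles and squares are the 2 metaphyseal libraries and triangles the GFP library. *Lox* peaks in OB and dpMSC, *Loxl1* in dpMSC, mpMSC and SC, *Loxl4* in chondrocytes and *Plod1* in EC.

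OB-like cells stood apart by a broad set of these genes. In the comparison with mpMSC-like cells, which asks how bone matrix producers differ from the metaphyseal stroma, 8 of the 10 genes were higher and *Loxl1* was lower, while 35.6% of the 12326 genes tested were called in either direction, 17.2% as higher and 18.4% as lower. The library values of 7 of the 10 genes did not overlap, nor did those of 52.1% of all genes. These are not the same genes as those called. *Loxl3* did not overlap but was not called and had lower CPM in OB-like cells. *Loxl2*, *Loxl4* and *Plod1* were called higher and overlapped. The median change of the 10 genes was 1.92 and that of all genes -0.05 on the log2 scale.

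*Lox*, the lysyl oxidase that cross-links fibrillar collagen and elastin, was found at 784, 776 and 602 CPM in OB-like cells and at 153, 115 and 89.3 CPM in mpMSC-like cells. The libraries did not overlap, and the log2 fold change was 3.36 (SE 0.44, n = 3 libraries, edgeR adjusted p = 8.36e-07). After every cell was thinned to 2000 UMIs, a *Lox* UMI was seen in 75.9, 79.2 and 66.6% of OB-like cells, in 15.8, 15 and 14.3% of mpMSC-like cells and in 9.52, 9.09 and 17.6% of erythroid-like cells, against 99.4, 100 and 97.2% of OB-like cells before thinning. Of the populations summed in all 3 libraries, the highest mean *Lox* levels were those of OB (721 CPM ± 103, SD, n = 3), dpMSC (512 ± 149) and mpMSC (119 ± 32.1). Among themselves, they kept this order in 3 of 3 libraries. Mural cells of metaphyseal library 2 had 165 CPM, above the 115 CPM of mpMSC-like cells. In the GFP library the 89.3 CPM of mpMSC-like cells lay below neutrophil-like cells (102 CPM) and level with erythroid-like cells (89.2 CPM). The ranges of OB and dpMSC overlapped and those of dpMSC and mpMSC did not. Late OB-like cells had 694 CPM in the GFP library, above the 602 CPM of OB-like cells there. The metaphyseal libraries held 5 and 9 late OB-like cells, under the minimum of 10 for a sum.

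*Loxl1*, best known for the upkeep of elastic fibres, ran the other way. OB-like cells had 4.25, 8.92 and 14.4 CPM and mpMSC-like cells 208, 312 and 354 CPM, a log2 fold change of -4.24 (SE 0.50, adjusted p = 1.47e-07 by edgeR). The OB level lay under the 52.5, 97.0 and 85.4 CPM of erythroid-like cells, so it is at the level of background. Counted as UMIs of *Lox* per UMI of *Loxl1*, the ratio was 41.7 to 185 in OB-like cells, 0.827 to 1.49 in dpMSC-like cells, 0.252 to 0.738 in mpMSC-like cells and 0.143 to 0.241 in SC-like cells. The OB-like ratio was the highest of these 4 in all 3 libraries. In the GFP library *Lox* was at 89.3 CPM in mpMSC-like and 41.4 CPM in SC-like cells, against 89.2 CPM in erythroid-like cells. Their ratios there thus rest on *Lox* level with or below that of erythroid-like cells. In that library EC had 22.1 CPM, macrophage-like cells 22.6 CPM, osteoclast-like cells 53.8 CPM, B-lineage cells 95.8 CPM and neutrophil-like cells 102 CPM.

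Of the remaining lysyl oxidases, *Loxl2*, which also cross-links basement membrane type IV collagen, had 63.7, 63.3 and 199 CPM in OB-like cells and 64.6, 44.3 and 43.0 CPM in mpMSC-like cells. These CPM overlapped. Divided by the TMM factors, they did not, with 82.5, 83.5 and 340 in OB-like and 53.2, 37.6 and 38.1 in mpMSC-like cells. The log2 fold change of 1.88 (SE 0.48, edgeR adjusted p = 0.00280) fell short of the threshold without TMM factors (1.05, adjusted p = 0.0514). *Loxl4* had 23.5, 16.4 and 10.5 CPM in OB-like cells and 1.70, 14.2 and 1.92 CPM in mpMSC-like cells (log2 fold change 2.73, SE 0.51, edgeR adjusted p = 1.28e-04). Its CPM overlapped between these populations, while the values divided by the TMM factors did not. Its levels were low, as erythroid-like cells had 41.2, 0 and 1.29 CPM and barcodes with at most 100 UMIs had 8.88 to 9.77 CPM. *Loxl3* had 36.5, 35.1 and 38.6 CPM in OB-like cells, lower than the 45.9, 39.0 and 45.7 CPM of mpMSC-like cells, and its fitted change of 0.65 (SE 0.36, adjusted p = 0.177 by edgeR) turned to -0.13 without TMM factors and passed as higher with the sums of blood cells left out of the fit (adjusted p = 0.0401), so no direction is given for it. The *Loxl3* locus overlaps *Htra2* on the other strand and the strand setting of the counting is not given in the sources used here, so the UMIs of *Loxl3* may not be its own alone.

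**Figure D2:**
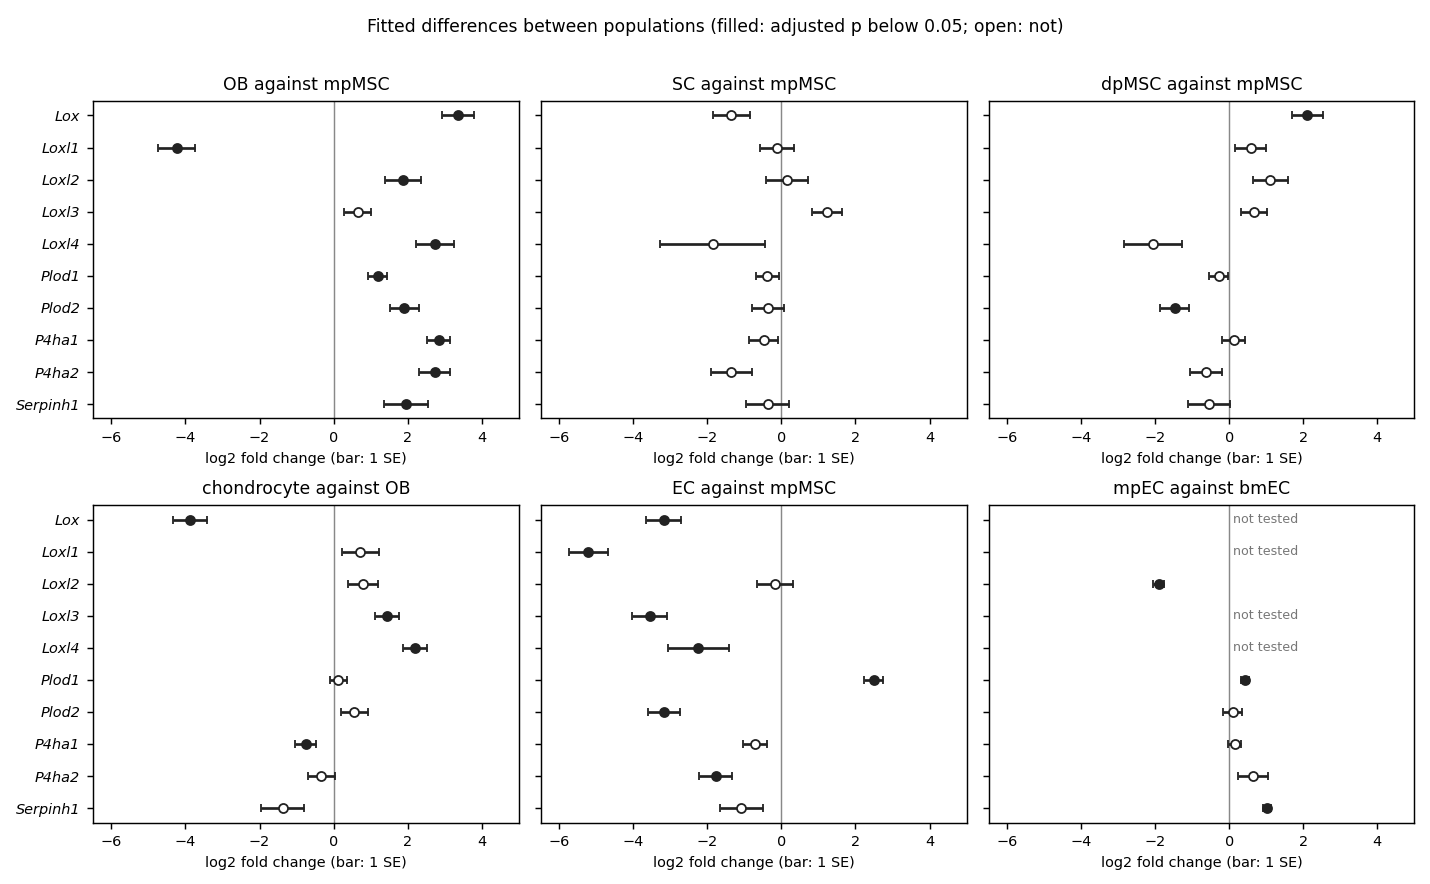
Log2 fold change of each gene in the 6 comparisons from edgeR's quasi-likelihood fit, with bars of 1 SE derived from the F statistic of the test. Filled points have an adjusted p below 0.05. Most points lie right of 0 for OB against mpMSC and left of 0 for EC against mpMSC, and *Lox* and *Loxl1* part company in OB.

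The intracellular members rose together in OB-like cells. *P4ha1* and *P4ha2* encode alternative catalytic subunits of the prolyl 4-hydroxylase that makes 4-hydroxyproline. *P4ha1* had 268, 292 and 206 CPM in OB-like cells against 73.1, 51.4 and 62.1 CPM in mpMSC-like cells (log2 fold change 2.83, SE 0.32, edgeR adjusted p = 9.09e-08). *P4ha2* had 210, 206 and 157 CPM against 62.9, 39.0 and 59.4 CPM (2.73, SE 0.42, edgeR adjusted p = 7.61e-06). Neither gene overlapped between the populations, and both calls were kept under all 15 alternatives tried.

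*Serpinh1* reached 5879, 5670 and 4814 CPM in OB-like cells and 2570, 1998 and 2807 CPM in mpMSC-like cells. Its log2 fold change of 1.94 (SE 0.59, edgeR adjusted p = 0.0114) was lost without TMM factors (1.23, adjusted p = 0.0810), without the library block (adjusted p = 0.105) and without metaphyseal library 1 (adjusted p = 0.130). *Plod2*, the telopeptide lysyl hydroxylase, had 361, 378 and 359 CPM against 172, 184 and 138 CPM (1.90, SE 0.39, edgeR adjusted p = 3.24e-04). *Plod1*, which hydroxylates lysine within the helix, differed least, with 71.4, 80.6 and 61.7 CPM against 66.3, 53.2 and 45.1 CPM, and its log2 fold change of 1.19 (SE 0.26, edgeR adjusted p = 5.81e-04) was 0.42 and not called without TMM factors (adjusted p = 0.1995).

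Of 26 other genes of collagen modification, folding, export and processing, 23 were tested, 15 were higher in OB-like cells and 2 were lower, with a median of 1.37. The procollagen C-proteinase enhancer *Pcolce2* (4.42, SE 0.83), *Sparc* (3.36, SE 0.70) and the prolyl isomerase *Fkbp7* (2.35, SE 0.45) were among the higher genes, and the prolyl 4-hydroxylase subunit *P4ha3* (-4.05, SE 0.62) and the transglutaminase *Tgm2* (-2.18, SE 0.31) were the lower ones. Collagen chains split, with 5 of 14 higher and 6 lower: *Col1a1* was higher (4.49, SE 1.15) and the basement membrane chain *Col4a1* lower (-2.91, SE 0.47). General folding genes of the endoplasmic reticulum moved little, as 2 of 12 were higher, 10 did not pass the test and the median was 0.18.

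The genes for prolyl hydroxylation and for HSP47 also had the most alike profiles among the 10. Over the 35 sums of a population in a library, log2(CPM + 1) correlated with Pearson's r of 0.866 between *P4ha1* and *P4ha2*, 0.855 between *P4ha2* and *Serpinh1* and 0.831 between *P4ha1* and *Serpinh1*. These points share libraries and free RNA, so the values are descriptions. Of 6175 genes with a mean of at least 20 CPM, the nearest to *Serpinh1* were *Rcn3* (0.979), *Praf2* (0.959) and the collagen prolyl isomerase *Fkbp10* (0.955), and the nearest to *P4ha2* included *Vkorc1* (0.928) and *P3h4* (0.919), a partner of the prolyl 3-hydroxylases. *Loxl1* lay nearest to *Plxdc2* (0.910) and the mesenchymal receptor *Pdgfrb* (0.904), *Lox* to *Tent5a* (0.848) and *Plod1* to *Hspg2* (0.847), the basement membrane proteoglycan perlecan.

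Promoters of these 3 alike genes are shown because *P4ha1* and *P4ha2* are known targets of hypoxia-inducible factors, and a list of hypoxia genes is compared below. The RefSeq table for GRCm38.p6 matched 5 of the 10 genes: *Loxl4*, *P4ha1*, *P4ha2*, *Plod1* and *Serpinh1*. Each of the 3 windows shown holds the 250 bases before the RefSeq start, with no base of an exon of the Gencode M21 annotation, and is read along the gene's strand, with the hypoxia response core letters ACGTG and GCGTG, on either strand, in capitals; the palindrome CACGTG, an E-box, would hold the first on both strands.
P4ha1, chr10:59323046-59323295, plus strand: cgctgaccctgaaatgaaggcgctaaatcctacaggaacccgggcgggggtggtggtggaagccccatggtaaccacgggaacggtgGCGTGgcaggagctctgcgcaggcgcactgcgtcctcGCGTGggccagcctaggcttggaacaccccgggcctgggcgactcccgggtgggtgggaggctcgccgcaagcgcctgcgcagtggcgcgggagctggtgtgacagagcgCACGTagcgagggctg
P4ha2, chr11:54100674-54100923, plus strand: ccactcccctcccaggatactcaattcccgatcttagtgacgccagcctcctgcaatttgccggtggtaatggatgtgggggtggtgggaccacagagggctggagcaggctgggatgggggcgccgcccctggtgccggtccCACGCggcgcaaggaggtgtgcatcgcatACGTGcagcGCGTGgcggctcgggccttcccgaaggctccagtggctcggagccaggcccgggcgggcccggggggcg
Serpinh1, chr7:99353240-99353489, minus strand: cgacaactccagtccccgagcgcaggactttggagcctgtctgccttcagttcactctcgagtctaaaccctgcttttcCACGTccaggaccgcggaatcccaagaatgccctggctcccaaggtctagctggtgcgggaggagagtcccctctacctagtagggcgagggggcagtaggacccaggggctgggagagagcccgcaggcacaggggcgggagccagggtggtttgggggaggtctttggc
The letters occurred 3 times in the window of *P4ha1*, 3 times in that of *P4ha2* and 1 time in that of *Serpinh1*, and 38.6% of all 32851 promoters in the table held at least 1. The windows of *P4ha1* and *Serpinh1* end where the Gencode gene begins, while that of *P4ha2* lies within the Gencode gene, between its exons, since the RefSeq start is downstream of the Gencode one. A match is a string of letters and not a measured binding site.

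SC-like cells, the population of interest of the study, were compared with mpMSC-like cells as stromal populations of the metaphysis. In this comparison edgeR's test called 0 of the 10 genes, against 4.87% of all genes (2.52% higher and 2.34% lower), and 3 had an unadjusted p under 0.05; DESeq2 called 0 as well. Library values did not overlap for 5 of the 10 genes and for 15% of all genes. The fitted differences ran from -1.85 for *Loxl4* to 1.22 for *Loxl3*. SC-like cells numbered 20, 19 and 251, so the metaphyseal sums rest on few cells, and the lack of calls does not show that the populations are alike.

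*Lox* had 41.8, 67.3 and 41.4 CPM in SC-like cells, under the mpMSC-like level in 3 of 3 libraries (log2 fold change -1.36, SE 0.50, edgeR adjusted p = 0.143). Erythroid-like cells had 22.5, 63.6 and 89.2 CPM, below SC-like cells in the metaphyseal libraries and above them in the GFP library. A *Lox* UMI was held by 30, 47.4 and 24.3% of SC-like and 14.3, 31.8 and 28.3% of erythroid-like cells before thinning, at a median of 10281.5, 9759 and 8374 UMIs against 11521, 9690 and 7760.5. After thinning, 6.07% of SC-like cells of the GFP library held one. The thinned shares of 0 in the metaphyseal libraries allow up to 16.8 and 17.6% (exact binomial upper limits). A level above that of erythroid-like cells was thus not detectable at this depth. *Loxl3* was higher in 3 of 3 libraries, with 97.5, 67.3 and 129 CPM (1.22, SE 0.41, edgeR adjusted p = 0.0900), and 25.0, 21.1 and 22.7% of thinned SC-like cells held a UMI of it, against 8.77, 10.0 and 8.18% of mpMSC-like cells and 0, 9.09 and 8.79% of erythroid-like cells. Both passed the threshold when the sums of blood cells were left out of the fit (adjusted p = 0.0216 for *Lox* and 0.00714 for *Loxl3*) and after thinning (0.0429 and 0.00772), and in no other alternative, whose adjusted p reached 0.591 for *Lox* and 0.636 for *Loxl3*.

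*Loxl1* had 293, 279 and 269 CPM in SC-like cells, which overlapped the mpMSC-like values, with a fitted difference of -0.12 (SE 0.45, edgeR adjusted p = 0.979). *P4ha2* had 13.9, 24.0 and 28.5 CPM there and a difference of -1.35 (SE 0.56, edgeR adjusted p = 0.214). *Loxl4* was at 0, 0 and 0.920 CPM. For the other 5 genes the fitted differences ran from -0.48 for *P4ha1* to 0.15 for *Loxl2*, and that of *Plod1*, -0.38 with every library, was -1.27 without the GFP library and -0.14 without metaphyseal library 1. None of the 23 other pathway genes tested was called, and of 14 collagens only *Col4a1* (1.72, SE 0.45) and *Col4a2* (1.47, SE 0.43) were higher.

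In dpMSC-like cells, which express *Lepr* and *Cxcl12*, *Lox* was high next to a full level of *Loxl1*. *Lox* reached 584, 611 and 340 CPM and was higher than in mpMSC-like cells (log2 fold change 2.11, SE 0.42, edgeR adjusted p = 3.70e-04), and *Plod2* was lower at 68.9, 68.9 and 41.6 CPM (-1.47, SE 0.39, edgeR adjusted p = 0.00606). These were the 2 calls among the 10 genes, against 24.6% of all genes (13.2% higher and 11.3% lower), and that of *Plod2* was lost without metaphyseal library 1 (adjusted p = 0.0829). Library values did not overlap for 7 of the 10 genes and for 31.6% of all genes. *Loxl1* had its highest mean here, with 391, 451 and 412 CPM, above mpMSC-like cells in 3 of 3 libraries, but the difference of 0.58 (SE 0.42) did not pass the test (edgeR adjusted p = 0.357) unless the GFP library was left out (adjusted p = 0.00282). *Loxl2* likewise was at 108, 101 and 88.1 CPM, higher in 3 of 3 libraries and not called (1.11, SE 0.48, edgeR adjusted p = 0.0944), except after thinning (adjusted p = 0.00406) and without the GFP library (0.0177). *Loxl4* missed the threshold (-2.06, edgeR adjusted p = 0.0563) and was called lower with a filter of only 10 UMIs in total (0.0387), without TMM factors (0.0487) and without the blood sums (0.0107), and *Serpinh1* (-0.55, adjusted p = 0.560) was called lower in the last of these alone (0.0116).

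The dpMSC-like cells held few collagen UMIs. The 14 collagen chains took 0.571 to 0.643% of their UMIs, 1.57 to 2.20% in mpMSC-like cells and 16.7 to 17.6% in OB-like cells. Erythroid-like cells had 0.255, 0.147 and 1.60%, and B-lineage cells 0.986, 1.03 and 3.23%. In the GFP library the shares of dpMSC-like (0.643%), SC-like (0.643%) and mpMSC-like cells (1.59%) were thus no higher than those of erythroid-like and B-lineage cells. Other blood populations of that library differed, with 2.46% in neutrophil-like, 1.06% in osteoclast-like and 0.257% in macrophage-like cells. Per 100 collagen UMIs, *Serpinh1* gave 24.1 to 31.7 UMIs in dpMSC-like cells, 24.4 to 35.1 in SC-like cells, 11.7 to 17.6 in mpMSC-like cells and 2.88 to 3.37 in OB-like cells. The part of free collagen RNA in these ratios was not tested. The share of the chains thus spanned a wider range between these populations than the level of the chaperone, and *Col1a1* was lower in dpMSC-like than in mpMSC-like cells (-3.89, SE 1.13). Of the 23 other pathway genes, 5 were higher and 2 lower, led by the prolyl 3-hydroxylase *P3h2* (3.76, SE 0.37).

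Chondrocyte-like cells, which expressed *Acan*, *Hapln1* and *Cnmd*, were compared with OB-like cells as cartilage against bone matrix producers. *Loxl4* and *Loxl3* were higher, *Lox* and *P4ha1* were lower, and the other 6 genes did not pass the test, while 35.8% of all genes were called, 18.4% as higher and 17.3% as lower. Library values did not overlap for 5 of the 10 genes and for 36.6% of all genes. *Lox* fell to 88.2, 61.7 and 47.0 CPM (log2 fold change -3.88, SE 0.46, edgeR adjusted p = 9.14e-08). *Loxl4* rose to 142, 177 and 39.9 CPM (2.19, SE 0.32, edgeR adjusted p = 3.91e-06), its highest level in any population. *Loxl3* rose to 58.8, 115 and 218 CPM (1.44, SE 0.32, edgeR adjusted p = 6.61e-04), and its call was lost without the library block (adjusted p = 0.0614).

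*Plod2* reached its highest level in chondrocyte-like cells, with 673, 796 and 618 CPM against 361, 378 and 359 CPM in OB-like cells. The libraries did not overlap, but the difference of 0.56 (SE 0.37, edgeR adjusted p = 0.261) did not pass the test except without the GFP library (0.71, adjusted p = 0.00426). *P4ha1* had 182, 182 and 223 CPM, lower than OB-like cells in 2 of 3 libraries (-0.76, SE 0.29, edgeR adjusted p = 0.0413), and its call was lost in 6 of 15 alternatives: without metaphyseal library 1 or 2 (adjusted p = 0.279 and 0.0996), without TMM factors (-0.41, adjusted p = 0.347), without the library block (0.296), at a minimum of 500 genes per cell (-0.54, adjusted p = 0.105) and with a stricter gate (0.0504). *P4ha2* had 170, 178 and 275 CPM (-0.34, SE 0.36, edgeR adjusted p = 0.516) and was called lower only without the GFP library (-0.54, adjusted p = 0.0117). *Serpinh1* had 2908, 2571 and 2769 CPM, lower in 3 of 3 libraries (-1.37, SE 0.58, edgeR adjusted p = 0.0687), and passed in 4 alternatives: without the blood sums (adjusted p = 3.12e-07), after thinning (8.15e-04), with the filter of 10 UMIs (0.0235) and without metaphyseal library 2 (0.0265). *Loxl2* had 109, 185 and 432 CPM, higher in 3 of 3 libraries (0.80, SE 0.41, edgeR adjusted p = 0.138), and passed in 3 alternatives: without the GFP library (adjusted p = 0.00109), after thinning (0.00231) and without TMM factors (0.0228). *Loxl1*, at 0, 2.80 and 43.0 CPM, had a difference of 0.72 (SE 0.51) that turned to -2.32 without the GFP library. Its levels in both populations lay under those of erythroid-like cells.

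Of 10 hypoxia and glycolysis genes, 9 were higher in chondrocyte-like than in OB-like cells, with a median of 1.83 beside 0.00 for all genes, among them the glucose transporter *Slc2a1* (4.54, SE 0.37) and *Bnip3* (3.16, SE 0.20). In OB against mpMSC, 3 of these 10 were higher and 0 lower, with a median of 0.29. Their part in the levels of *P4ha1* and *P4ha2* was not tested. In the wider pathway 6 of 23 genes were higher, such as the collagen galactosyltransferase *Colgalt2* (5.57, SE 0.38) and *P3h2* (4.76, SE 0.31), and 8 were lower, such as the procollagen N-proteinase *Adamts2* (-4.26, SE 0.51).

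Within the chondrocyte-like cells, *Loxl4* and *Lox* were higher and *Loxl3* was lower in cells with *Col10a1*, the collagen of hypertrophic cartilage, in all 3 libraries. The split at 1000 CPM of *Col10a1* per cell was chosen after the levels had been seen and is given with no test. Cells at or above it numbered 16, 9 and 63, or 45.7, 26.5 and 4.73% of the chondrocyte-like cells of each library, and none of them was called a doublet. Fewer doublets were called than expected in every library, so this check is weak. *Loxl4* had 424, 682 and 348 CPM in these cells and 12.6, 39.2 and 17.1 CPM in the others. *Lox* had 276, 223 and 155 CPM in them and 2.52, 17.8 and 39.0 CPM in the others. Osteocalcin UMIs (*Bglap* and *Bglap2*), a sign of osteoblast RNA, came to 33.1, 72.2 and 1379 CPM in them and 30.2, 83.8 and 878 CPM in the others, and their part in the *Lox* values was not tested. *Loxl2* had no common order, with 116, 151 and 234 CPM against 106, 194 and 446 CPM, and *Loxl1* was at 0, 0 and 4.66 CPM against 0, 3.56 and 45.8 CPM.

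The hydroxylases and the chaperone were lower on the *Col10a1* side. *Plod2* had 143, 91.9 and 346 CPM there and 915, 987 and 638 CPM in the other cells. *Serpinh1* had 1069, 1168 and 2018 CPM against 3748, 2952 and 2825 CPM, and *Loxl3* 0, 13.1 and 148 CPM against 85.7, 143 and 223 CPM. *P4ha2* differed less, with 132, 112 and 260 CPM against 187, 196 and 276 CPM. *P4ha1* had 121, 118 and 204 CPM against 209, 199.6 and 225 CPM, and *Plod1* 22.0, 59.1 and 79.2 CPM against 93.3, 114 and 119 CPM. All 3 libraries had the same order for each of these genes other than *Loxl2* and *Loxl1*, and the metaphyseal values rest on 16 and 9 cells. The median UMIs per cell were 8247.5, 17847 and 14560 on the *Col10a1* side and 19932, 21557 and 8983.5 in the other cells. These CPM carry no TMM factors, and *Col10a1* itself took 38245, 54695 and 20120 CPM on its side. The part of depth and scaling in these differences was not tested.

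**Figure D3:**
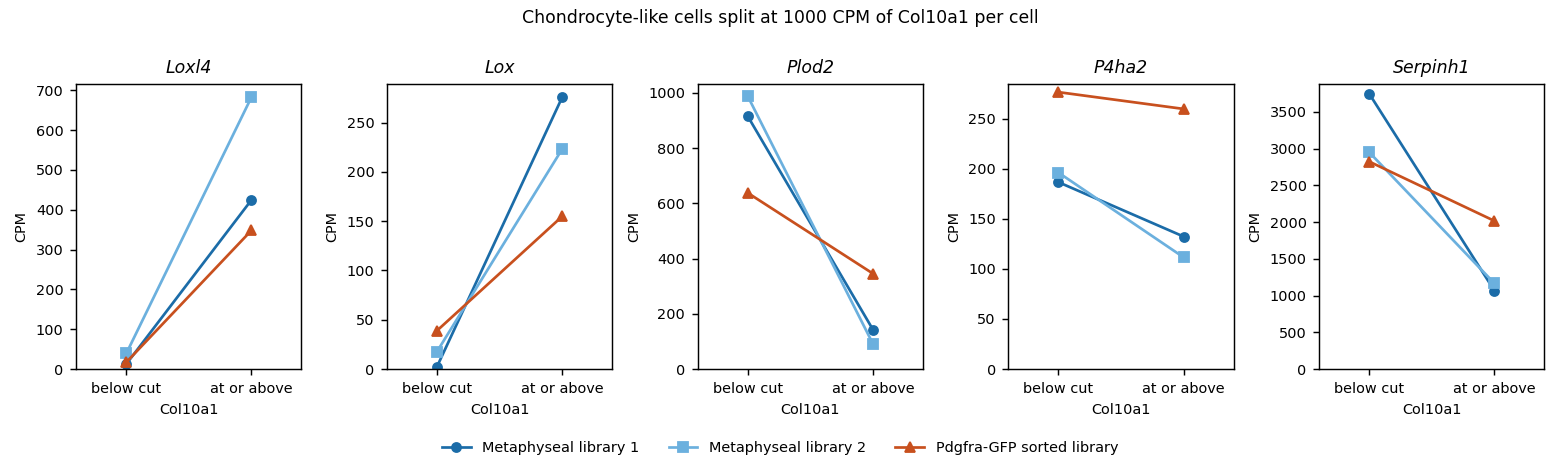
CPM of 5 genes in chondrocyte-like cells below and at or above 1000 CPM of *Col10a1* per cell, 1 line per library. *Loxl4* and *Lox* rise toward the *Col10a1* side in every library, and *Plod2*, *P4ha2* and *Serpinh1* fall.

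Superficial chondrocyte-like cells, marked by *Prg4*, reached the minimum for a sum in the GFP library only. They had 178 CPM of *Loxl3*, 253.5 CPM of *P4ha2*, 328 CPM of *Plod2* and 2.60 CPM of *Loxl4*. Fibroblast-like cells of the same library had 292 CPM of *Loxl2*, 261 CPM of *Loxl1* and 212 CPM of *P4ha1*. With 1 library these levels have no replicate check. Late OB-like cells, marked by *Dmp1* and *Mepe*, kept 694 CPM of *Lox* while holding 94.97 CPM of *P4ha1*, 78.5 CPM of *P4ha2* and 2122 CPM of *Serpinh1*, on 26 cells. Their own markers came to 10645 CPM and the OB markers in them to 42569 CPM.

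Endothelial cells held more *Plod1* than *Plod2*, while OB-like and chondrocyte-like cells held more *Plod2*. *Plod1* was at 316, 334 and 213 CPM in EC, its highest level in any population, and at 66.3, 53.2 and 45.1 CPM in mpMSC-like cells (log2 fold change 2.49, SE 0.26, edgeR adjusted p = 5.31e-09). After thinning, 44.1, 47.1 and 32.4% of EC held a *Plod1* UMI, against 9.52, 4.55 and 6.59% of erythroid-like cells. *Plod2* was at 18.5, 18.9 and 15.2 CPM in EC (-3.18, SE 0.43, edgeR adjusted p = 4.66e-07), no higher than in erythroid-like cells by its thinned share of 3.32, 3.50 and 3.20% against 4.76, 13.6 and 5.49%. The UMIs of *Plod1* per UMI of *Plod2* came to 14.0 to 17.7 in EC, 0.642 to 0.958 in dpMSC-like and 0.172 to 0.213 in OB-like cells.

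In all, 1 of the 10 genes was higher and 6 were lower in EC than in mpMSC-like cells, against 41.3% of all genes called, 21.6% as higher and 19.7% as lower. The library values of 9 genes did not overlap, beside 42.7% of all genes. *Loxl1* (-5.22, SE 0.52), *Loxl3* (-3.56, SE 0.47) and *Lox* (-3.18, SE 0.47) had 5.84 to 12.6, 1.99 to 5.69 and 8.68 to 22.1 CPM in EC. *P4ha2* (-1.77, SE 0.45, edgeR adjusted p = 0.00193) was lost without metaphyseal library 1 (adjusted p = 0.156) and without the library block (0.0726). *Loxl4* (-2.25, SE 0.82, edgeR adjusted p = 0.0295) was at 1.57 CPM or less in EC and at 1.70 to 14.2 CPM in mpMSC-like cells, and its call was lost in 5 of 15 alternatives: after thinning (adjusted p = 0.359), without the library block (0.182) and without any 1 of the 3 libraries (0.104, 0.0719 and 0.0590). *P4ha1* (-0.71, edgeR adjusted p = 0.0801) gained a call as lower in 5 alternatives, the lowest adjusted p being 0.00294 without the blood sums.

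*Serpinh1* had 1023, 991 and 1558 CPM in EC, a difference of -1.08 (SE 0.58, edgeR adjusted p = 0.143) that was called after thinning (-0.95, adjusted p = 0.0446) and without the blood sums (-1.05, adjusted p = 2.04e-05). In the wider pathway 15 of 23 genes were lower and 3 higher, among them *Colgalt2* (4.76, SE 0.61) and *P3h2* (3.73, SE 0.38). Of the 14 collagens 9 were lower, led by *Col3a1* (-7.35, SE 1.01), and the basement membrane chains *Col4a1* (3.44, SE 0.47) and *Col4a2* (3.46, SE 0.44) were higher.

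The endothelial subtypes differed in *Loxl2*, *Plod1* and *Serpinh1*. Metaphyseal EC (mpEC), gated by *Aplnr*, *Ramp3* and *Piezo2*, were compared with bone marrow sinusoidal EC (bmEC), gated by *Stab2*, *Mrc1* and *Dnase1l3*, in a fit over 8020 genes, of which 32.5% were called, 15.3% as higher and 17.2% as lower. Of the 10 genes 6 were tested, 2 were higher and 1 was lower, and these 3 did not overlap between libraries, like 30% of all genes, while *Lox*, *Loxl1*, *Loxl3* and *Loxl4* were too low for the filter. *Loxl2* had 24.1, 21.7 and 11.8 CPM in mpEC and 85.6, 80.9 and 48.4 CPM in bmEC (log2 fold change -1.91, SE 0.16, edgeR adjusted p = 1.78e-10), and 6.01, 9.93 and 9.03 CPM in arterial EC (aEC).

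*Serpinh1* had 1286, 1265 and 2111 CPM in mpEC and 701, 676 and 740 CPM in bmEC (1.02, SE 0.11, edgeR adjusted p = 5.45e-08). *Plod1* had 381, 399 and 303 CPM against 286, 297 and 186 CPM (0.43, SE 0.10, edgeR adjusted p = 0.00178), a call lost without the library block (adjusted p = 0.237), after thinning (0.0586) and without metaphyseal library 1 (0.0627). *Col4a1* was also higher in mpEC (0.91, SE 0.11), as were 2 other collagens, *Col4a2* and *Col5a2*, of 10 tested, while *Col10a1* was called lower (-2.19, SE 0.59) with a higher CPM in 2 of 3 libraries. Of 18 other pathway genes tested 5 were higher, with *Bmp1* at 1.58 (SE 0.18), and 2 were lower, *P3h2* (-1.45, SE 0.18) and *Tgm2* (-1.40, SE 0.12). *P4ha2* was highest in aEC, with 28.5, 45.7 and 74.5 CPM against 8.38, 6.50 and 11.8 CPM in mpEC, a difference seen in 3 of 3 libraries for which no test was run.

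**Figure D4:**
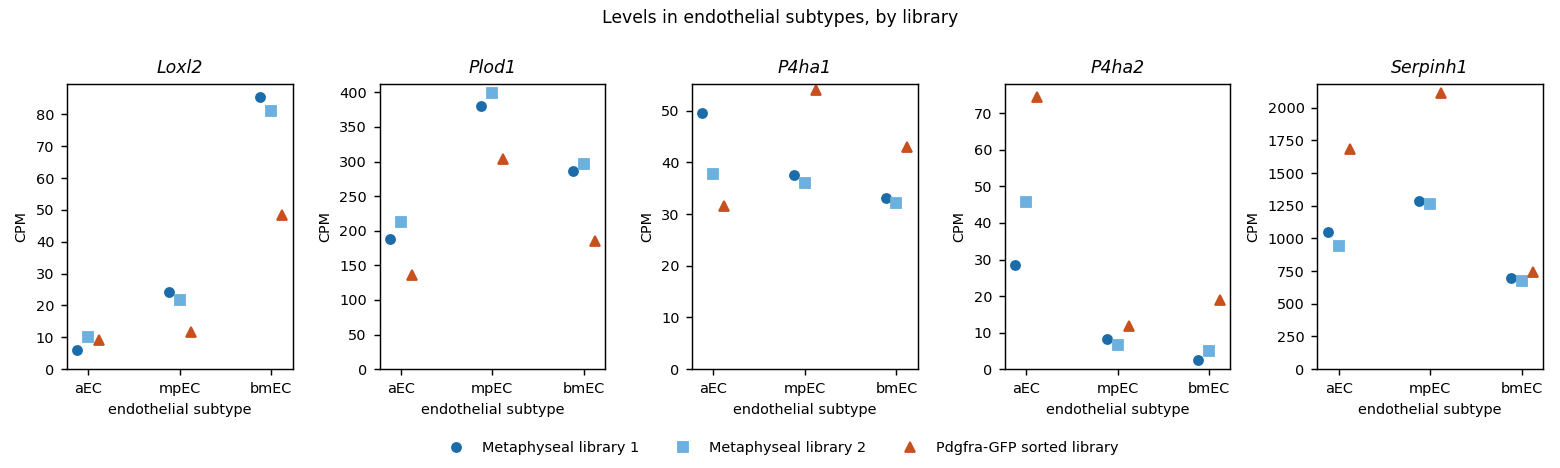
CPM of 5 genes in arterial (aEC), metaphyseal (mpEC) and bone marrow (bmEC) endothelial cells, with 1 point per library. *Loxl2* is highest in bmEC, *Plod1* and *Serpinh1* in mpEC and *P4ha2* in aEC in every library.

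The genes lie apart on the genome. By the Gencode M21 annotation of GRCm38, *Loxl1* spans chr9:58287738-58313186 on the minus strand and *Plod2* chr9:92542223-92608428 on the plus strand, and the other 8 are on different chromosomes: *Loxl2* at chr14:69609068-69695834, *Loxl3* at chr6:83034173-83052562, *Loxl4* at chr19:42593982-42612813, *Plod1* at chr4:147909753-147936767, *P4ha1* at chr10:59323296-59373304, *P4ha2* at chr11:54100095-54131665, *Serpinh1* at chr7:99345376-99353239 and *Lox* on chromosome 18. All 10 are protein-coding and carry the same identifiers and versions as in the count tables. Genes other than *Loxl3* that overlap another annotated gene are *Lox*, *Loxl2* and *Plod2*, each with a noncoding or tentative gene.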

How the data were processed

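Per the labels and methods, the authors prepared 10x Genomics libraries, trimmed reads with fastp 0.20, aligned them to mm10 with STAR 2.7.3a in its STARsolo mode, using Gencode M23 plus the reporter, and deposited unnormalized UMI counts for each gene in each barcode. The counts of 55422 genes were used as deposited. Cells were kept with at least 1500 genes (metaphyseal) or 1000 genes (GFP) and at most 15% mitochondrial and 30% ribosomal UMIs. EmptyDrops was not used here. Scrublet in scanpy 1.11.5 called 24, 12 and 171 doublets (1.01, 0.599 and 1.52%), which were kept. The rates expected from the cell numbers were 1.91, 1.60 and 8.99%.

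A cell joined the population with the highest mean z-score of its markers, if at least 3 were detected and the lead was at least 0.2 (EC subtypes: 2 markers). Thresholds were set from cell numbers and marker levels. The genes, the marker lists and the gene lists were chosen with earlier results of these data known. Always named were the 10 genes, then up to 6 genes per list by largest change among those called.

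UMIs of each population of at least 10 cells were summed within each library and all sums tested in 1 fit by edgeR 4.0.16 (R 4.3.3) with the library as a block. Populations of a library come from 1 suspension, and deviations of OB and mpMSC sums correlated with r of 0.271, 0.288 and 0.636. For SC and mpMSC, r was 0.0319, 0.0535 and 0.452. The script was run on simulated counts drawn around a profile common to all populations, with changes in OB sums alone and no library effect. Such counts cannot check the library block or the scaling of unlike populations. Exact 95% intervals and floors of 3 counts were computed and cover counting error only. DESeq2 1.42.0, other filters, gates and scaling, thinning to 2000 UMIs and left-out libraries were alternatives. Late OB and fibroblast comparisons were not run, since only the GFP library gave sums of them.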

Additional observations from a re-analysis of the deposited data

Results flagged for a closer look

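In 7 results the difference between populations in the GFP library was unlike that in the metaphyseal libraries, by a test of the difference itself (an interaction term in edgeR's quasi-likelihood fit, added after the data were seen, adjusted over 12326 genes). The GFP arm is 1 library, so its spread is taken from the metaphyseal pair. The sort, the epiphysis in the tissue and the library cannot be told apart. For OB against mpMSC, where 0.681% of all genes were called, *Loxl2* changed by 3.21 in the GFP library and 0.89 in the metaphyseal libraries, a gap of 2.32 (adjusted p = 5.94e-06). For chondrocyte against OB 5.61% of all genes were called. *Loxl1* had a gap of 3.51 (1.06 against -2.44, adjusted p = 0.00375), *Loxl3* of 1.04 (1.99 against 0.95, adjusted p = 9.88e-04), *P4ha2* of 0.93 (0.30 against -0.63, adjusted p = 3.70e-06) and *Loxl4* of -1.21 (1.42 against 2.63, adjusted p = 0.00684). The *Loxl1* gap lies between levels at background. Chondrocyte-like cells had 0, 2.80 and 43.0 CPM and OB-like cells 4.25, 8.92 and 14.4 CPM, under the 52.5, 97.0 and 85.4 CPM of erythroid-like cells. The metaphyseal chondrocyte sums held 0 and 2 *Loxl1* UMIs. Cells at or above 1000 CPM of *Col10a1* were 4.73% of chondrocyte-like cells in the GFP library and 45.7 and 26.5% in the metaphyseal libraries, and their part in these gaps was not tested. For EC against mpMSC, where 1.16% of all genes were called, *Lox* had a gap of 1.75 (-2.02 against -3.77, adjusted p = 0.00592) and *P4ha2* of 1.85 (-0.68 against -2.52, adjusted p = 7.23e-04). The *Lox* level of EC, at 8.68, 11.4 and 22.1 CPM, lay under the 22.5, 63.6 and 89.2 CPM of erythroid-like cells. In EC the sum of the dpMSC markers was 756, 641 and 1623 CPM and that of the OB markers 74.0, 178 and 840 CPM, both highest in the GFP library, and their part was not tested. The makeup of EC also differed, as aEC numbered 88 of 1114, 69 of 885 and 80 of 293 EC. In the GFP library *P4ha2* was at 74.5 CPM in aEC, 11.8 CPM in mpEC and 18.8 CPM in bmEC. The part of this makeup in the *P4ha2* gap was not tested.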

How the results depend on the processing

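Of the 25 calls among the 10 genes, 16 were kept under all of the 15 alternatives that gave them a value. Over all 56 results and alternatives, 771 values kept their direction and side of the threshold, 23 lost their call, 28 gained one and 8 reversed. Leaving out the library block lowered the called genes to 2404 for OB against mpMSC, 213 for SC, 1608 for dpMSC, 2656 for chondrocyte against OB and 997 for mpEC against bmEC. Thinning left 2252 (OB), 349 (SC), 1615 (dpMSC), 2045 (chondrocyte), 2876 (EC) and 1117 (mpEC), fewer UMIs being tested. Without TMM factors 7486 genes were called for OB against mpMSC. The share of the called genes that were higher went from 48.4% to 8.83%, and from 51.5% to 76.7% for chondrocyte against OB. The DESeq2 test called 1458 for mpEC, and leaving out the blood sums gave 987 for SC, the cause of either not being tested. Without 1 library each, the called genes numbered 2795 to 3339 (OB), 122 to 383 (SC), 1715 to 2246 (dpMSC), 2934 to 3343 (chondrocyte), 3516 to 4208 (EC) and 1232 to 3295 (mpEC). The highest mpEC count lay above the 2609 of the main fit, and the part of the number of libraries was not tested. The drops of over 1.5 times came without metaphyseal library 1 (2795, 278, 1715, 2934 and 1232), without metaphyseal library 2 (383 for SC and 1543 for mpEC) and without the GFP library (122 for SC).

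None of the reversed values was called: *Loxl3* in OB without TMM factors (-0.13), *Loxl2* in EC after thinning (0.22), *P4ha2* in mpEC against bmEC without metaphyseal library 1 (-0.046, range over left-out libraries to 0.9999), *Loxl1* in SC without metaphyseal library 2 (0.017) or the GFP library (0.081, range from -0.37), *P4ha1* in dpMSC without the GFP library (-0.025, range to 0.26), and *Loxl1* (-2.32, range to 1.005) and *Plod1* (-0.074, range to 0.25) in chondrocyte against OB without the GFP library. Leaving out the block ended the calls of *Serpinh1* in OB, *Loxl3* and *P4ha1* (adjusted p = 0.296) in chondrocytes, *Loxl4* (adjusted p = 0.182) and *P4ha2* in EC and *Plod1* in mpEC. A cell minimum of 500 genes shifted the median of all genes by -0.11 for OB against mpMSC, and the lighter filter by 0.15. The SC sums of 20 and 19 cells limit that comparison.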
